A study of Homo sapiens with 4 samples.

Results

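Single-exon circles are circular RNAs whose back splice joins the 2 ends of 1 exon block, so that the whole circle is a single stretch of its host gene. They were measured here by nanopore sequencing of circular RNA in 4 libraries of MDA-MB-468, an established cell line from a human breast cancer. Members were the rows of the deposited table that were typed as exon circles, lay off the mitochondrial chromosome, named 1 gene and listed 1 isoform of 1 block, with at least 1 count. This gave 14699 single-exon circles among 190152 circles with a count. A further 3232 positions met the rule but had 0 counts in all 4 libraries. Of the members, 2486 had exactly 1 count, 5943 had 2, 894 had at least 10 and 201 had at least 40.

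The 2 groups were a control hairpin (shCtrl, genotype label WT) and a stable short hairpin against HNRNPL (shHNRNPL-1, label HNRNPL knockdown), each with 2 libraries. All 4 libraries came from the same radiation-resistant derivative, which had been given 50 Gy in fractions, so no library stands for the untreated parent line. The knockdown rests on 1 hairpin in 1 cell line, and no circle named HNRNPL as its host, so the knockdown itself could not be checked here. The series design calls the libraries biological replicates. The question of the series was which circular RNAs depend on HNRNPL.

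Circular RNA forms when the spliceosome joins a downstream 5′ splice site to an upstream 3′ splice site instead of the next exon. A circle of 1 exon needs both sites on the same exon, and such circles often come from exons longer than the average internal exon. Having no ends, circles withstand exonucleases that degrade linear RNA, and some, such as those of HIPK3 and FOXO3, are widely studied in cancer cells. HNRNPL is an RNA-binding protein that prefers CA-rich sequence and regulates the choice of splice sites.

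Control replicates 1 and 2 had totals of 472428 and 556578 counts, and the totals of knockdown replicates 1 and 2 were 282737 and 390547. Levels below are counts per 100000 library counts. Where a circle has 0 counts, up to 3 are allowed for, and the matching upper limits are 0.635, 0.539, 1.06 and 0.768 per 100000 for these libraries. The cDNA was amplified and carried no molecular identifiers, so counts are not independent molecules and these limits cover counting error only. As a check of the label, 6 of 8 epithelial genes had circles of any class, at 141 and 90.6 per 100000 in the controls against 60.8 and 59.9 in the knockdowns as a sum. GRHL2 led this list with 454, 382, 128 and 167 counts, and EGFR followed with 169, 85, 20 and 31. The sum rests mostly on these genes. EPCAM had 9, 18, 11 and 12 counts and ESRP1 had 13, 14, 9 and 18. CDH1 had 17, 5, 4 and 6 counts and KRT5 had 2, 0, 0 and 0. KRT17 and KRT18 were at 0, and 3 leukocyte, 3 endothelial and 3 fibroblast genes were at 0 in all 4 libraries. Fewer cells of a type and less RNA per cell cannot be told apart in such bulk samples.

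Control replicate 1 stood apart from the other 3 libraries. The deposited splice-site column carries an asterisk on some rows, and the table does not say what it marks. Circles with it are called marked below, and those without it unmarked. Marked rows held 47.2% of all counts in control replicate 1, and 26.4%, 24.7% and 24.9% in control replicate 2 and knockdown replicates 1 and 2. Several results below are therefore also given without it. A fit that leaves out 1 library has a lone library in that group and takes its spread from the other group, so the lone library is assumed to vary like those.

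The deposited table also gives, for many circles, the short sequence that it calls equivalent at the splice site. These bases are shown because they are the only sequence of the circles used here, and because they separate unmarked from marked circles. They read 5′ to 3′, and the letters AGGT, where present, are in capitals. For leading and named circles on GRCh38 the table gave:
HIPK3, chr11:33286413-33287511, plus strand: cAGGTa
ZBTB44, chr11:130260856-130261929, minus strand: tagg
FGD6, chr12:95208843-95211267, minus strand: ag
SENP6, chr6:75702645-75703072, plus strand: tacag
BIRC6, chr2:32414769-32416163, plus strand: aaagg
LCORL, chr4:17873388-17878213, minus strand: tag
BRCA2, chr13:32336265-32341196, plus strand: ggt
MBNL2, chr13:97275632-97276409, plus strand: AGGT
FOXO3, chr6:108663455-108664889, plus strand: gcag
HIPK2, chr7:139715932-139717015, minus strand: AGGTa

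AG ends the intron before an exon and GT starts the intron after it in the usual splice sites. Such bases were listed for 1795 of 2058 unmarked circles (87.2%) and 4908 of 12641 marked circles (38.8%). Among those with bases, 65.6% of the unmarked and 19.4% of the marked circles had AG in them. The share with AG was alike on both strands in the unmarked circles, at 68.4% on the plus and 62.8% on the minus strand. The reverse complement CT was found in 0.333% and 0.112%, so the bases follow the strand of the circle. AG itself was the most common entry in the unmarked circles, with 474, followed by G with 346, AGG with 231, GG with 122, CAG with 106 and AGGT with 102. In the marked circles the single base G was the most common, with 2319.

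The asterisk split the single-exon circles into 2 kinds that differed in number, depth and position. Unmarked circles were 2058 of 14699 (14%) but held 87789 of 130541 member counts (67.3%). Marked circles were 12641 (86.0%) and held 42752 counts (32.7%). An unmarked circle had a median of 3 counts and at most 12241, and a marked circle a median of 2 and at most 576. Among unmarked circles 38.0% were seen in 1 library only and 375 (18.2%) in all 4. Among marked circles 75.7% were seen in 1 library only and 129 (1.02%) in all 4. These are descriptions of different circles in the same 4 libraries, with no test.

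The ends of unmarked circles mostly coincided with exon ends found in other circles of the same gene. Both ends matched block edges of multi-exon circles of the host in 73.5% of unmarked circles and 1.19% of marked circles. The whole interval was itself listed as a block of such a circle for 923 unmarked circles (44.8%) and 105 marked ones (0.831%). The AG-GT motif was given for 90.6% and 74.7%, and both offsets beside the motif were 0 in 92.9% and 3.37%. An end shared with another member of the same kind was found for 3.64% of unmarked and 11.9% of marked circles.

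Unmarked circles lay throughout their genes, and marked circles lay near gene ends. The midpoint of an unmarked circle lay at a median of 53.5% of the RefSeq gene span (GRCh38.p14), counted from the 5′ end, and that of a marked circle at 94.2%. Of unmarked circles 167 (8.26%) lay within 5000 nt of the gene end, against 9332 (75.1%) of marked circles. Within 5000 nt of the gene start lay 8.07% and 6.02%. These positions cover the 14445 members whose host was in the gene table and whose coordinates fell within 1000 nt of its span. The median length was 1519.5 nt for unmarked and 1202 nt for marked circles, and over all members it was 1231 nt, with quartiles of 827 and 1823 nt and a range from 73 to 9025 nt.

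**Figure D1:**
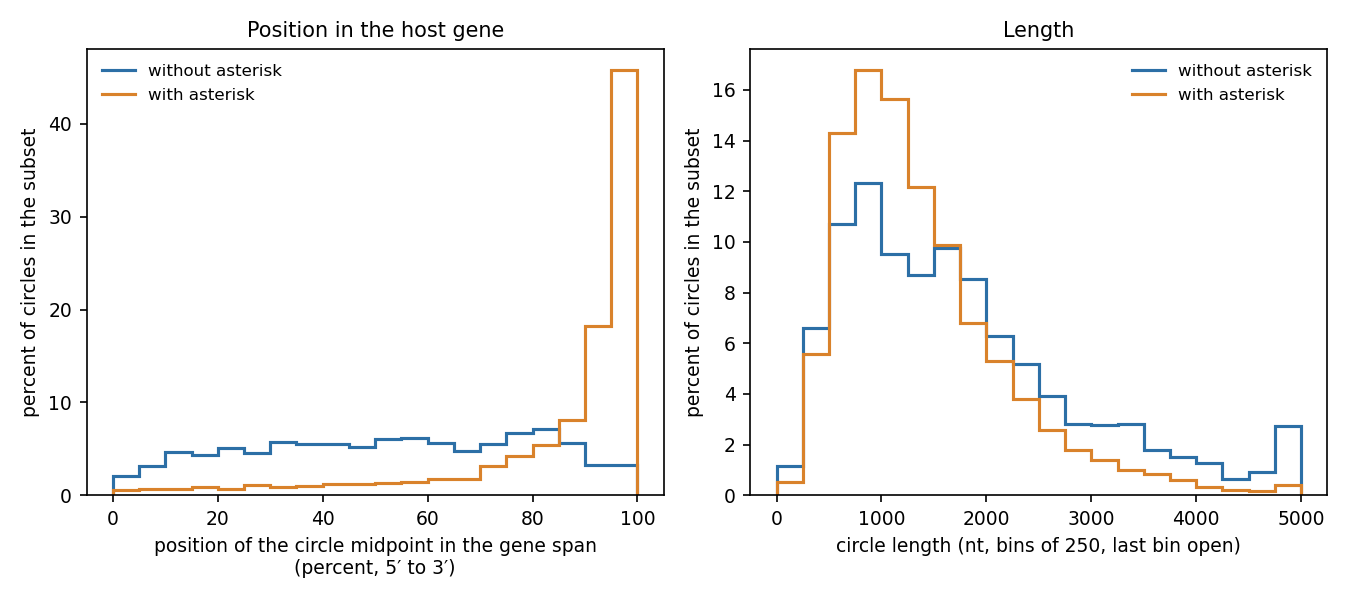
Left, position of the circle midpoint in the host gene span (percent, 5′ to 3′, bins of 5 percent). Right, circle length in bins of 250 nt with the last bin open. Each line gives the percent of the 2021 unmarked or 12424 marked circles with a position, or of the 2058 and 12641 circles by length. Marked circles rise steeply toward the gene end while unmarked circles are spread along the gene.

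Single-exon circles differed from multi-exon circles in structure and in the share of marked rows. Their median length of 1231 nt was also their length per exon, against 186 nt per exon in circles of 2 to 5 exons, 140 nt in those of 6 to 11 and 137 nt in those of 12 or more. The total median lengths of these 3 classes were 731, 1140 and 2185 nt, so a single-exon circle was longer than a typical circle of 2 to 5 exons. Both ends met block edges of multi-exon circles in only 1.19% of marked members, so most marked blocks are not shown to be exons. Over unmarked members listed as a block of a multi-exon circle the median length was 1179 nt. Unmarked circles made up 14% of the single-exon class and 61.0%, 65.2% and 62.8% of the other 3 classes. By counts, the unmarked share of the single-exon class was 50.9%, 78.5%, 73.0% and 70.6% in control replicates 1 and 2 and knockdown replicates 1 and 2. In circles of 2 to 5 exons it was 70.6%, 86.7%, 87.5% and 87.4%. The single-exon share was the lower of the 2 in each library, without a test between the classes.

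The share of the single-exon class overlapped between control and knockdown. It took 14.6% and 9.84% of the counts of one-gene exon circles in the controls against 10.2% and 10.7% in the knockdowns. The means were 12.2% ± 3.34 and 10.5% ± 0.411 (SD, n = 2 each). The groups overlapped, and the exact two-sided permutation test gave p = 1, where 0.333 is the smallest value that 2 against 2 allows. The difference of -1.74 percentage points turned to 0.616 without control replicate 1. Among unmarked circles alone the single-exon share was 9.97% and 8.89% in the controls against 8.43% and 8.63% in the knockdowns, a difference of -0.900 points without overlap (exact permutation p = 0.333, the smallest possible). Of all library counts, the class held 8.51%, 6.96%, 7.44% and 7.83%.

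Most of the different single-exon circles in each library were marked ones, and their number varied most. At the depth of the shallowest library, 282737 counts, the expected number was 6207 and 2848 in the controls against 4033 and 4473 in the knockdowns (exact permutation p = 1). Control replicate 1 alone set the control mean above the knockdown mean: the difference of -274 circles became 1405 without it. The unmarked circles among them numbered 917 and 912 in the controls against 941 and 988 in the knockdowns. These did not overlap, at means of 915 ± 3.80 and 965 ± 33.3 (SD, n = 2 each, exact permutation p = 0.333, the smallest possible). The depth was set over all circles, and marked rows held 47.2% of counts in control replicate 1 against 24.7% to 26.4% elsewhere. Unmarked circles of control replicate 1 were thus drawn at a lower depth, and the unmarked numbers are not at equal depth. The marked circles numbered 5289, 1936, 3092 and 3485. By counts, unmarked circles took 4331 and 5462 per 100000 in the controls against 5429 and 5525 in the knockdowns, and marked circles 4176, 1500, 2007 and 2305. The high value of control replicate 1 is thus seen in marked circles and its low value in unmarked ones.

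**Figure D2:**
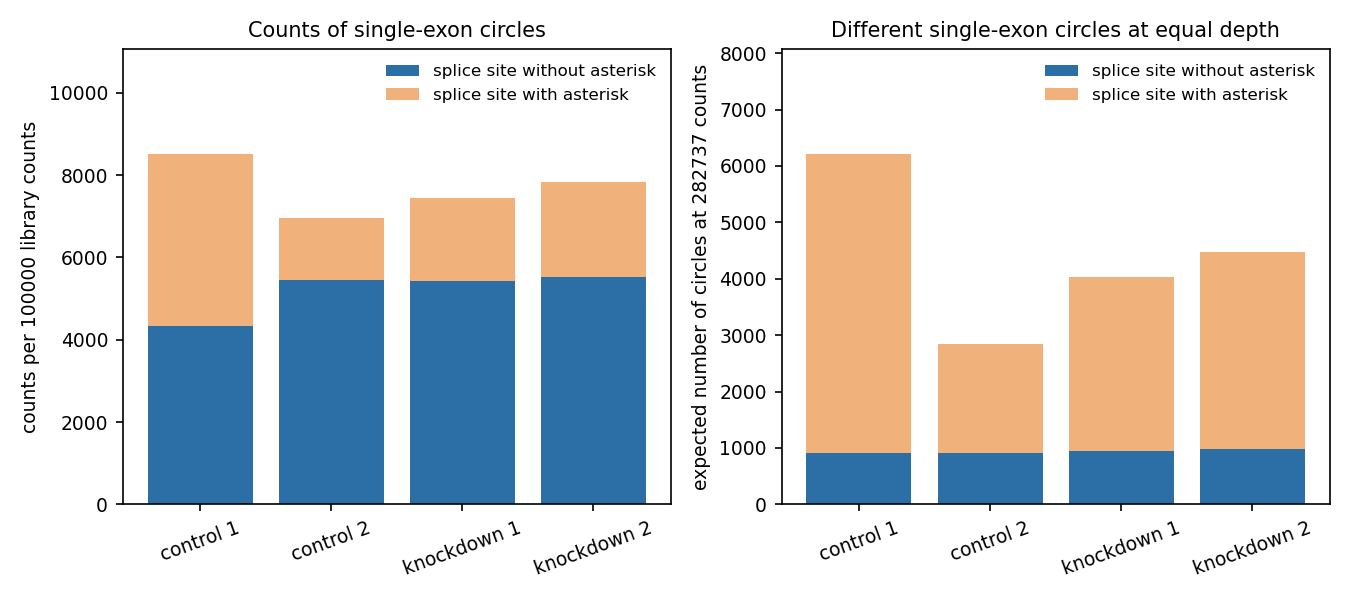
Counts of single-exon circles per 100000 library counts (left) and expected number of different single-exon circles at 282737 counts (right), by library. Bars start at 0 and are stacked, with unmarked circles below and marked circles above, and each bar is 1 library. Control replicate 1 has the tallest marked section in both panels, with 4176 per 100000 and 5289 circles.

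The class was dominated by few circles. The 10 most abundant held 28.3% and 44.0% of member counts in the controls against 41.3% and 39.7% in the knockdowns, and the groups overlapped (exact permutation p = 1). The difference of 4.33 points became -3.48 without control replicate 1 and 0.471 without the SENP6 circles. The count-weighted median length was 1127 and 1099 nt in the controls and 1099 nt in both knockdowns, 1099 nt being the length of the HIPK3 circle. In total 4295 genes hosted a single-exon circle, of 7039 hosts of one-gene exon circles. Of the hosts, 1883 had 1 member and 300 had 10 or more. Among the 2038 with at least 40 counts in one-gene exon circles, 242 had over 50% of them in single-exon circles and 48 over 90%.

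The 12 most abundant single-exon circles held 51161 counts, which is 39.2% of member counts. All 12 were unmarked, and 9 were also listed as a block of a multi-exon circle of their host. Their lengths ran from 428 to 2425 nt. In edgeR's quasi-likelihood test with Benjamini-Hochberg adjustment none of them passed an adjusted p of 0.05, and 4 were higher and 6 lower in the knockdown without overlap. Over all circles with at least 40 counts, 29.7% were higher and 28.9% lower without overlap. Whether the 12 differ from this was not tested. The 5 foremost per kilobase of circle were SENP6 at 705 counts per 100000 and kilobase as a mean over the 4 libraries, HIPK3 at 637, ZBTB44 at 590, SLC45A4 at 292 and PRKD3 at 189. Counts are given per back-splice position, so division by length favours short circles. Without it HIPK3 led at 700 per 100000, and SENP6 was at 302.

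The HIPK3 circle, from a gene for a homeodomain-interacting protein kinase, had 3605 and 4630 counts in the controls against 1850 and 2156 in the knockdowns. Its level was 797 ± 48.6 per 100000 in the controls and 603 ± 72.3 in the knockdowns (SD, n = 2 each). Both knockdowns lay below both controls, and the log2 difference was -0.46 ± 0.31 (SE, adjusted p = 0.470 in edgeR), or -0.26 without control replicate 1. It made up 94.5% of all one-gene exon circle counts of HIPK3.

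The ZBTB44 circle, from a gene for a zinc finger protein, differed in the other direction, with 2023, 3362, 1988 and 3123 counts in control replicates 1 and 2 and knockdown replicates 1 and 2. Its level was 516 ± 124 per 100000 in the controls and 751 ± 68.3 in the knockdowns, with no overlap and a log2 difference of 0.52 ± 0.31 (SE, edgeR adjusted p = 0.430). The FGD6 circle, whose gene encodes an activator of the small GTPase CDC42, had 922, 1718, 1114 and 1318 counts, which is 252 ± 80.3 and 366 ± 40.0 per 100000. Its log2 difference was also 0.52 ± 0.31, with an edgeR adjusted p of 0.430. Both circles were nearly the sole one-gene exon circle of their host, with 99.0% and 96.0% of the host's counts.

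The SENP6 circle showed the largest difference among the abundant members, which it joined through its knockdown levels. The 12 were ranked by the mean over all 4 libraries. The SENP6 control mean of 19.6 per 100000 lay below that of CDK13, the last of the 12, at 80.4. SENP6 is a protease that removes SUMO from proteins, and the circle is 428 nt long, the shortest of the 12. It had 15 and 200 counts in the controls against 1474 and 2527 in the knockdowns. Its level was 3.18 and 35.9 per 100000 in the controls against 521 and 647 in the knockdowns, with means of 19.6 ± 23.2 and 584 ± 88.9. The 2 controls differed from each other by a wide margin, yet both lay far below both knockdowns. The log2 difference was 5.02 ± 0.97 (SE), with an edgeR adjusted p of 0.111, and it became 4.23 when control replicate 1 was left out and 7.28 when control replicate 2 was. Its share is seen in the lengths of the class: unmarked circles under 500 nt took 5.47% and 4.91% of unmarked member counts in the controls against 12.2% and 14.8% in the knockdowns. Without SENP6 these shares were 5.41%, 4.29%, 2.90% and 3.53%.

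Among the 12 abundant members the SLC45A4 circle (chr8:141253989-141254629, 641 nt) had the lowest level in the knockdown relative to the control. It comes from a gene of the solute carrier family and held 99.9% of its host's one-gene exon counts. Its counts were 1376 and 1212 in the controls against 309 and 513 in the knockdowns, or 255 ± 52.0 and 120 ± 15.6 per 100000. The groups did not overlap, with a log2 difference of -1.17 ± 0.41 (SE, edgeR adjusted p = 0.296). It was -0.65 without control replicate 1 and -1.5 with control replicate 2 left out.

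The other 7 abundant circles differed by less than that of SLC45A4. The circles of PRKD3 (protein kinase D3), SKIL (a repressor of SMAD signalling) and CDK13 (a kinase of RNA polymerase II) were lower in both knockdowns than in both controls, at log2 differences of -0.64, -0.72 and -0.47. SKIL stood out in carrying the motif AG-GC, while the other 11 carried AG-GT. The circle of TET1, an enzyme that oxidises 5-methylcytosine, was higher in both knockdowns, at 96.3 ± 19.8 and 147 ± 2.22 per 100000 (log2 difference 0.58). The ATF7IP circle, whose gene encodes a partner of the histone methyltransferase SETDB1, had 493, 1110, 261 and 329 counts and a log2 difference of -0.78, or -0.48 without control replicate 2. The MGA circle had 260, 1009, 484 and 524 counts. The BIRC6 circle had 352, 905, 240 and 372 counts. The groups overlapped for these last 2, whose log2 differences of 0.42 and -0.37 became -0.050 without control replicate 1 for MGA and 0.044 without control replicate 2 for BIRC6.

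**Figure D3:**
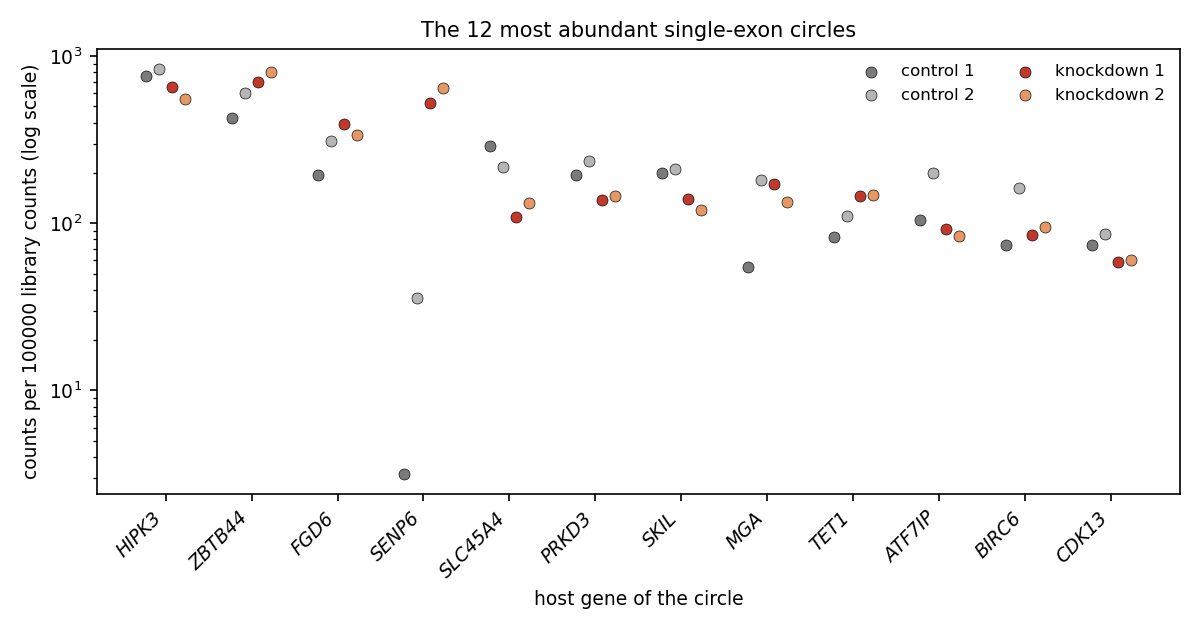
Level of the 12 most abundant single-exon circles in counts per 100000 library counts on a log scale, by host gene. Each point is 1 library, grey for controls and red or orange for HNRNPL knockdowns. The 2 SENP6 knockdown points, at 521 and 647, lie far above its control points at 3.18 and 35.9, while the groups of HIPK3, ZBTB44 and FGD6 lie within a factor of 2 on average.

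Across single circles, no member passed the threshold. Of 894 single-exon circles with at least 10 counts, 0 had an adjusted p below 0.05 in edgeR's quasi-likelihood test, as did 0 of all 21576 circles tested (0% called). The smallest adjusted p was 0.0761. At an unadjusted p below 0.05, 163 members (18.2%) differed, 116 higher and 47 lower in the knockdown. Over all circles tested 13.4% did so, 9.42% higher and 4% lower. The median log2 difference was -0.90 over the members tested and -0.39 over all circles tested. It was -0.28 over 427 unmarked and -4.99 over 467 marked members, and the members' median became 0.13 without control replicate 1. Without that library the medians were 0.04 over 423 unmarked and 0.33 over 286 marked members. Of the 467 marked members, 226 (48.4%) had counts in 1 library only, so they met the count minimum through a single library. DESeq2 called 63 members, 50 higher and 13 lower, where it called 4.88% of all circles. With at least 5 counts in each of 2 libraries edgeR called 80 members and with at least 40 counts it called 32, where 12% and 12.5% of all such circles were called. With unmarked splice sites only, edgeR called 56, where 7.96% of all such circles were called. Without control replicate 1 it called 239 of 709 members, where 22.6% of all circles were called, and without control replicate 2 it called 451 of 843, where 29.8% of all circles were called. Without a count filter it called 38 (0.248% of all circles), with the replicate number as a block 113 (7.66%), and with AG-GT rows only 2 (0.151%). The count of members called thus ran from 0 to 451 over the settings tried, and the highest counts came from the fits with 1 control library.

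The 3 higher members with the smallest p were circles of SLTM, LCORL and SRP9. The SLTM circle (chr15:58912563-58913696, 1134 nt, from a gene for a regulator of transcription related to scaffold attachment factor B) had 0 and 0 counts in the controls against 47 and 56 in the knockdowns. It was at least 26.4-fold higher, set against 3 counts per control library, with an edgeR adjusted p of 0.0761. The LCORL circle (4826 nt, from a gene related to a nuclear receptor corepressor) had 2, 3, 40 and 44 counts, or 0.481 ± 0.0818 and 12.7 ± 2.04 per 100000. The SRP9 circle (chr1:225789525-225790335, 811 nt), from a gene for a subunit of the signal recognition particle, was marked and had 1, 1, 26 and 42 counts. LCORL and SRP9 had log2 differences of 4.61 ± 0.51 and 5.47 ± 0.61 (SE) at the same edgeR adjusted p of 0.0761. In each of these 3 both control libraries were near 0 and both knockdown libraries were above them.

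Among the lower members with the smallest p were circles of PEX13 and WDR89. The PEX13 circle (chr2:61031419-61032113, 695 nt, from a gene for a membrane protein of the peroxisomal import machinery) had 110 and 134 counts in the controls against 10 and 13 in the knockdowns. This is 23.7 ± 0.560 and 3.43 ± 0.147 per 100000, with close agreement within each group and a log2 difference of -2.83 ± 0.41 (SE, edgeR adjusted p = 0.0862). The WDR89 circle (chr14:63598756-63599973, 1218 nt) was marked and had 77, 209, 23 and 27 counts, with a log2 difference of -1.82 ± 0.42 (edgeR adjusted p = 0.149).

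The longest member with at least 40 counts was the BRCA2 circle of 4932 nt, from the gene for a mediator of homologous recombination. It had 0 and 2 counts in the controls against 34 and 33 in the knockdowns, or 0.180 ± 0.254 and 10.2 ± 2.53 per 100000 (log2 difference 5.53 ± 0.78, edgeR adjusted p = 0.0857). The log2 difference was 4.89 without control replicate 1 and 8.18 with control replicate 2 left out, where the remaining control had 0 counts and the value is no bound. Both knockdowns lay above both controls. It took 13.2% of the host's one-gene exon counts. The shortest was a marked circle of MRPS26, a mitochondrial ribosomal protein gene (chr20:3048030-3048250, 221 nt), with 55 counts in control replicate 1 and 0 in the other 3 libraries.

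Among the 201 members with at least 40 counts, 55 were higher in both knockdowns than in both controls and 65 were lower (27.4% and 32.3%). Over all 4944 circles of that depth, 29.7% were higher and 28.9% lower without overlap, so the members' shares lay near the background. With a difference of at least 4-fold between the means as well, 28 members were higher and 12 lower, where 12.2% and 3.16% of all circles of that depth were. The minimum of 40 counts is a sum over the 4 libraries. A circle near 0 in the controls, such as that of SLTM, therefore met it only through the knockdowns. The interval was listed as a block of a multi-exon circle for 24 of the 28 and 10 of the 12, and for 150 of all 201. Control replicate 1 was below control replicate 2 in 24 of the 28. Control replicate 2 exceeded control replicate 1 by over 2-fold in 72 of the 201 members and the reverse was so in 22, while the 2 knockdowns differed by over 2-fold in 27.

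The members named in the next sentences were chosen after their values were seen. The ARAP2 circle (1064 nt) had 3, 33, 123 and 194 counts in control replicates 1 and 2 and knockdown replicates 1 and 2. The DNTTIP2 circle (1595 nt) had 10, 53, 117 and 147 counts. The circle of MASTL, a kinase that acts in mitosis, had 3, 33, 82 and 135 counts. In all 3, control replicate 2 lay nearer to the knockdowns than control replicate 1 did, without reaching them. The circle of SHLD2, a shieldin subunit that acts at DNA breaks, had 0, 10, 66 and 95 counts. That of FANCM, a helicase of the Fanconi anaemia pathway, had 0, 6, 37 and 63. The circles of BARD1, the partner of BRCA1, and of BRIP1, a helicase that binds BRCA1, had 1, 8, 18 and 27 and 0, 3, 13 and 28 counts. The BRIP1 circle was marked, and the BARD1 and BRIP1 circles held 0.552% and 4.28% of their hosts' one-gene exon counts. The circles of PRKDC and EXO5, also repair genes, were lower in both knockdowns than in both controls. Their mean levels were 5.35 and 7.11 in the controls against 2.695 and 3.13 in the knockdowns. Whether repair genes differed as a set was not tested. On the lower side, the UBAP2 circle (1587 nt) had 93, 119, 8 and 27 counts. The circle of ATP2B1, a calcium pump of the plasma membrane, had 41, 61, 3 and 12. The circle of CD47, a cell surface protein that restrains phagocytosis, had 20, 18, 1 and 5.

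**Figure D4:**
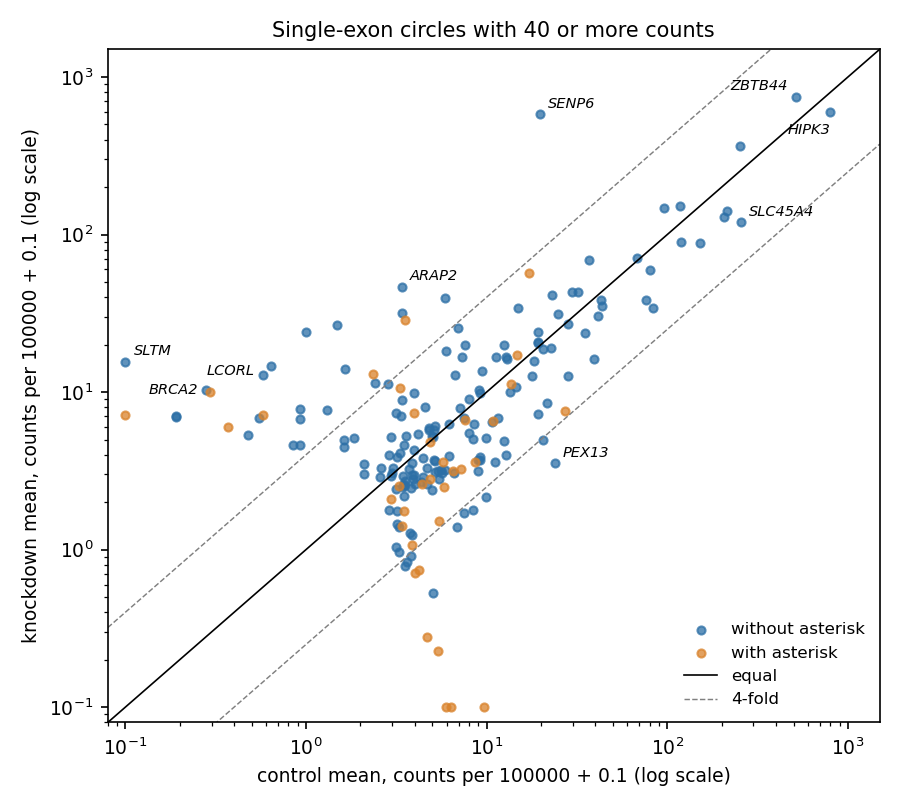
Mean level in the 2 knockdowns against the mean in the 2 controls for the 201 single-exon circles with at least 40 counts, in counts per 100000 with 0.1 added, on log scales. Points are circles, coloured by the asterisk, with lines at equal levels and at a 4-fold difference. SENP6 lies far above the lines near the top, SLTM at the left edge has 0 control counts, and PEX13 lies below the lower 4-fold line.

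Summed per host gene, the single-exon output of 21 genes passed the threshold. Of 1541 single-exon host sums with at least 10 counts, 20 were higher and 1 was lower in the knockdown at an edgeR adjusted p below 0.05. Over all 7214 sums of a host and a circle class, 1.58% passed, 1.57% higher and 0.0139% lower. The single-exon share of 21 in 1541 was close to this background. The minimum of 10 counts is a sum over the 4 libraries. Called hosts near 0 in the controls, such as SLTM with 1 and 1 counts there, met it only through the knockdowns. At an unadjusted p below 0.05, 276 single-exon sums differed, 147 higher and 129 lower, where 18.3% of all sums did, 10.1% higher and 8.14% lower. The median log2 difference was -0.49 over single-exon sums and -0.26 over all sums. None of the 21 passed without knockdown replicate 1 or without knockdown replicate 2, and 10 sums passed with scaling by library size, where 0.721% of all sums did. With 1 control library left, 347 passed without control replicate 1 and 587 without control replicate 2, where 23.8% and 33.4% of all sums did.

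The 5 higher hosts with the smallest p were SLTM, LCORL, SRP9, MBNL2 and BRCA2. SLTM had 1 and 1 single-exon counts in the controls against 50 and 60 in the knockdowns, and rose by 6.29 ± 0.56 on the log2 scale (SE, edgeR adjusted p = 0.0192). LCORL had 3, 3, 50 and 56 counts and rose by 4.79 ± 0.49, and SRP9 had 1, 4, 41 and 66 and rose by 5.04 ± 0.57. In these 3 hosts the circles named above held 92.0%, 79.5% and 62.5% of the sum. BRCA2 had 1, 4, 37 and 41 counts and rose by 4.62 ± 0.61 (edgeR adjusted p = 0.0232). SRP9 ranged from 4.57 to 6.12 and BRCA2 from 4.13 to 5.68 when 1 library was left out, the lowest values without control replicate 1 and the highest without control replicate 2. These 4 rises rest on controls of at most 4 counts per library.

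MBNL2, a splicing regulator of the muscleblind family, differed from these in the number of its circles. It had 26 members, of which 3 were unmarked. Their sum was 5 and 4 counts in the controls against 43 and 66 in the knockdowns, a rise of 4.23 ± 0.48 on the log2 scale (SE, edgeR adjusted p = 0.0192). The leading circle (778 nt), whose bases are given above, had 1, 1, 15 and 21 counts and held 32.2% of the sum. A second unmarked circle (chr13:97365136-97366553, 1418 nt) had 0, 0, 6 and 4 counts.

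PEX13 was the only host whose single-exon sum fell in this test, from 111 and 137 counts in the controls to 12 and 14 in the knockdowns, at -2.54 ± 0.37 on the log2 scale (SE, edgeR adjusted p = 0.0296). Its 1 unmarked circle held 97.4% of the sum.

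The other 15 called hosts were all higher, and those named here passed the threshold outside the rule for named genes. They included IPO7, ZNF146, SWT1, TMEM123, MAL2, KLHL8, FANCM, SENP6, ZBTB10, SHLD2, IBTK, DEK and SERBP1. SENP6 had by far the most counts, with 26 and 218 in the controls against 1475 and 2528 in the knockdowns, and its log2 difference of 4.83 was 4.07 without control replicate 1 and 6.83 with control replicate 2 left out. TMEM123 followed with 10, 36, 98 and 193 counts, all from marked circles. ZBTB10 had 0 counts in both controls and was at least 8.41-fold higher, set against 3 counts per control library. Of all 21 hosts, 16 had at most 10 control counts, 13 were led by an unmarked circle and 8 by a marked one.

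**Figure D5:**
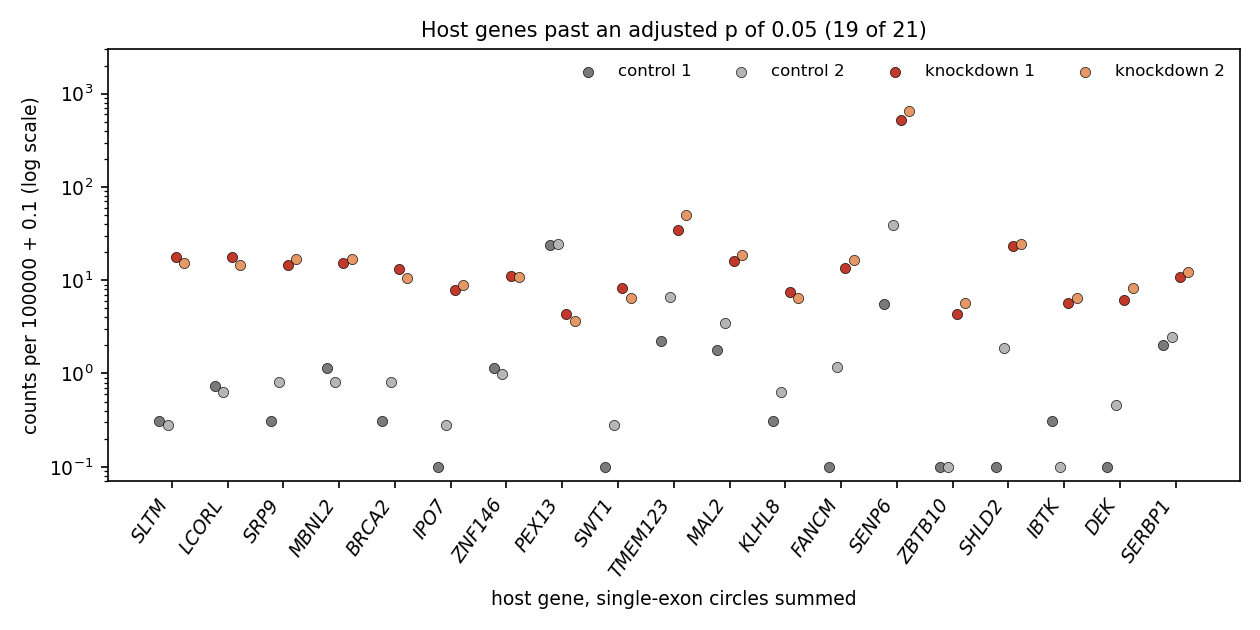
Summed single-exon level of 19 of the 21 host genes past an edgeR adjusted p of 0.05, in counts per 100000 with 0.1 added, on a log scale, in order of p. Each point is 1 library, grey for controls and red or orange for knockdowns, and points at 0.1 are libraries with 0 counts. Both knockdown points lie above both control points in every host drawn except PEX13, where they lie below.

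Whether single-exon circles moved apart from the other exon circles of their host was tested in the 1170 genes with at least 10 counts in both sums. At an adjusted p below 0.05, 0 hosts passed edgeR's F test of circle use (0% called), and the smallest adjusted p was 0.0861. At an unadjusted p below 0.05, 160 did (13.7%), 101 toward (8.63%) and 59 away from (5.04%) single-exon circles in the knockdown. With 1 control library left, the test called 233 of 1133 hosts without control replicate 1 and 291 of 1157 without control replicate 2.

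The 3 hosts with the smallest p toward single-exon circles were SLTM, ITGAV and MBNL2. All 3 met the minimum of 10 single-exon counts only through the knockdowns. In SLTM the single-exon circles made up 4.17% and 1.75% of one-gene exon counts in the controls against 64.9% and 55.6% in the knockdowns (edgeR adjusted p = 0.0861). In ITGAV, the gene for integrin alpha V, they made up 0%, 2.44%, 41.5% and 50.0%, and in MBNL2 9.43%, 16%, 71.7% and 75.9% (edgeR adjusted p = 0.111 for both). The single-exon counts of ITGAV were 0, 3, 17 and 35, while its other exon circles had 107, 120, 24 and 35.

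The 3 hosts with the smallest p away from single-exon circles were POLK, PPP2R1B and CACUL1, each with 0 single-exon counts in both knockdowns. In POLK, the gene for a translesion DNA polymerase, single-exon circles held 88.9% and 77.8% in the controls, on 16 and 7 counts. In PPP2R1B, the gene for a scaffold subunit of protein phosphatase 2A, they held 15.8% and 42.0%, on 18 and 37 counts. In CACUL1 they had 45 and 8 counts in the controls, beside 5 and 3 of the other exon circles. The edgeR adjusted p values were 0.116, 0.123 and 0.128. All 3 hosts met the minimum of 10 single-exon counts only through the controls. Their other exon circles had 8 and 14 counts in the knockdowns in POLK, 56 and 59 in PPP2R1B and 10 and 16 in CACUL1.

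Of a list of 11 hosts of widely studied single-exon or long noncoding circles, 7 had a member. Besides HIPK3, the FOXO3 circle (1435 nt), from a gene for a forkhead transcription factor, had 26, 13, 7 and 10 counts. Its log2 difference of -0.74 ± 0.70 (edgeR adjusted p = 0.609) became 0.31 without control replicate 1. The HIPK2 circle (1084 nt) had 13, 22, 11 and 7 counts, and its log2 difference of -0.30 became 0.13 without knockdown replicate 2. The ZNF609 circle (chr15:64499293-64500166, 874 nt) had 8, 12, 0 and 2 counts and a log2 difference of -2.66 ± 1.21 (edgeR adjusted p = 0.427). This difference was -1.84 without knockdown replicate 1. It was -6.13 with knockdown replicate 2 left out, where the remaining knockdown had 0 counts and the value is no bound. FAT1 had 6 counts and LINC-PINT and PVT1 had 3 each, all in control replicate 1, below the minimum for the test. The antisense transcript CDR1-AS and the hosts CDR1, LINC00632 and SLC8A1 had no single-exon circle here.

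Of 20 genes for factors known to act on circle formation or exon choice, 12 hosted a single-exon circle and 8 reached 10 counts. MBNL2 was the only one called, at 1 of 8 beside the 1.58% of all sums, and the other 7 had negative log2 differences. The median over the 8 was -0.85, beside -0.49 over all single-exon sums. Counts were low, for example: RBFOX2 had 25, 0, 2 and 6, ADAR 12, 0, 0 and 2, CELF1 9, 1, 0 and 1, MBNL1 1, 8, 3 and 1, and QKI 3, 4, 0 and 3 in control replicates 1 and 2 and knockdown replicates 1 and 2. In RBFOX2, ADAR and CELF1 most counts came from control replicate 1. The single circle of RBFOX2 with at least 10 counts was marked, with 15 counts in control replicate 1 and 0 elsewhere.

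The 2 hosts with the most members were long noncoding genes, and most of their circles were marked. NEAT1, the scaffold RNA of paraspeckles, had 106 members, none unmarked, with 202, 87, 49 and 60 counts. MALAT1, an abundant RNA of nuclear speckles, had 57 members, of which 4 were unmarked, with 232, 137, 79 and 116 counts. CBX5, the gene for heterochromatin protein 1 alpha, and AK4, an adenylate kinase gene, had 47 members each, none unmarked. CBX5 had 141, 6, 9 and 13 counts and AK4 had 90, 28, 11 and 15. In all 4 hosts control replicate 1 held the most counts. Per 100000, NEAT1 was at 29.2 ± 19.2 in the controls and 16.3 ± 1.39 in the knockdowns, and MALAT1 at 36.9 ± 17.3 and 28.8 ± 1.25 (SD, n = 2 each). Most of the MALAT1 level came from 1 unmarked circle of 852 nt, at means of 22.7 in the controls and 18.9 in the knockdowns. Control replicate 2 alone was at 15.6 for NEAT1 and 24.6 for MALAT1, below both knockdowns for MALAT1. TALAM1, which lies antisense to MALAT1 and is named after its values were seen, had 29 members, none unmarked, with 112, 218, 156 and 291 counts. Per 100000 this was 23.7 and 39.2 in the controls against 55.2 and 74.5 in the knockdowns, with no overlap. The ratio of the means was 2.06. The rise lay in the TALAM1 circle of 1356 nt, at means of 17.1 in the controls and 56.7 in the knockdowns. Its circle of 1440 nt was lower in the knockdowns without overlap, at 8.55 and 3.48. For NEAT1 and MALAT1 the knockdown means were the lower ones, but their groups overlapped. Control replicate 1 was the highest library for both, at 42.8 and 49.1. How strand was assigned is not given in the sources used here, so circles of MALAT1 and TALAM1 are uncertain as to their gene. Noncoding hosts overall held 2.78% and 1.66% of member counts in the controls against 2.03% and 2.17% in the knockdowns, with overlap between the groups.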

How the data were processed

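The authors deposited raw counts per back-splice position, called with CIRI-long, per the file headers and columns. GRCh38.p14 and DESeq2 are named without a role, per the submitters' processing notes, and versions, base caller and aligner are not given in the sources used here. The labels' protocols describe reverse transcription of total RNA by the Induro enzyme from random hexamers, then phi29 amplification and debranching. A second deposited table, a rescaling of the counts, was not used. Coordinates are 1-based.

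From the counts, edgeR 4.0.16 (R 4.3.3; glmQLFit default, TMM, Benjamini-Hochberg) was fitted to all circles, to sums per host and circle class, and to single-exon against other exon circles within hosts (diffSpliceDGE), each with at least 10 counts and a threshold of 0.05, all in 4 libraries grouped by title. Values per library were compared by exact permutation tests. Standard errors came from the F statistic. Scripts were tested on simulated data. Alternatives were library-size scaling, DESeq2 1.42.0 and its size factors, other count filters, the other dispersion method, AG-GT rows only, a replicate block, and leaving out each library. Restriction to unmarked rows, and leaving out SENP6, were chosen after seeing the data.

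Named were the 12 most abundant members, up to 5 circles or hosts per direction and test with no overlap (3 where none passed), the longest and shortest member with at least 40 counts, the hosts with most members, and 2 host lists. The members and lists were chosen with earlier results of these data known. Positions used the RefSeq gene table of GRCh38.p14. Replicates are called biological in the series design. Some items that these rules name are not reported here.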

Additional observations from a re-analysis of the deposited data

How the results depend on the processing

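The number of single-exon circles past the threshold was 0. It stayed 0 under DESeq2 size factors, scaling by library size and the other dispersion method. It was 63 with DESeq2, 38 unfiltered, 80 where 2 libraries had to hold 5 counts each, 32 with at least 40 counts, 2 with AG-GT rows only, 113 with the replicate block and 56 with unmarked rows only. It ranged from 0 to 451 when 1 library was left out. Single-exon host sums past the threshold numbered 21. They numbered 10 with library-size scaling, 44 with DESeq2, 178 unfiltered, 57 where 2 libraries had to hold 5 counts each, 117 with the replicate block, 41 with unmarked rows only and 0 to 587 with 1 library left out, and between 21 and 30 otherwise. Over all sums of a host and a class, DESeq2 called 245 of 7214 and the unfiltered fit 646 of 13455. The filter of 5 counts in 2 libraries called 245 of 5497, the replicate block 578 of 7214 and unmarked rows 390 of 5123. Hosts with changed single-exon use numbered 0, also with library-size scaling and the replicate block. They numbered 2 with no count filter, with the other dispersion method and with AG-GT rows only, 36 where 2 libraries had to hold 5 counts each, 12 with at least 40 counts, 8 with unmarked rows only and 0 to 291 with 1 library left out. DESeq2 was not run for circle use.

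Leaving out 1 library gave differences in the single-exon share from -4.10 to 0.616 points, in circles at equal depth from -1954 to 1405, in median length from -28 to 0 nt, and in the share of the 10 most abundant from -3.48 to 12.1 points. Within the second pair of libraries under the replicate block, the differences were 0.907 points, 1625 circles and -4.24 points, and within the first pair -4.39 points, -2174 circles and 12.9 points. Unmarked circles at equal depth in all counts, not in unmarked counts, differed by 49.7, and median length with each circle counted once by 20.5 nt. The cause was not tested.

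Of 26 named circles tested, 4 changed direction under an alternative. Leaving out 1 library moved MGA between -0.050 and 1.23, BIRC6 between -0.65 and 0.044, FOXO3 between -1.34 and 0.31, and HIPK2 between -0.87 and 0.13 on the log2 scale. Replicate numbers do not pair the libraries in the labels. The correlation of same-numbered deviations from the group means was 0.126 over members with at least 40 counts.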
